A study of Homo sapiens with 16 samples.

Results

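The comparison set 7 tumours that expressed the hairpin SHP2 miR1 against 3 tumours that expressed the hairpin SHP2 miR2, 10 of the 16 tumours of the series. Both hairpins target the same messenger RNA, so the comparison answers how far tumours that carry one hairpin differ from tumours that carry the other. Each tumour grew from BT474 cells, an established human breast cancer line with amplified ERBB2 (HER2), placed in the mammary fat pad of an immunodeficient mouse. The cells carried a lentiviral vector that makes the hairpin once doxycycline is given. Each hairpin was in its own separately transduced cells, and the labels do not say whether these were a clone. An effect of the hairpin and a trait of the cells that carried it cannot be told apart here. After tumours had formed, the mice of every group, the controls included, received doxycycline (2 g per L) in their drinking water for 30 days. The 6 CTRL miR tumours carried a control hairpin in the same vector and are given here as a level for orientation, outside every test. From each tumour 100 ng of total RNA went onto 1 human gene array. All transcript clusters listed with exactly 1 gene symbol were used, and for a gene with several clusters the one of highest mean signal was kept, which gave 18377 genes from 28869 clusters.

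SHP2 is the tyrosine phosphatase encoded by PTPN11, and it relays signals of growth factor receptors into the RAS-ERK pathway, whose output includes the transcription factor MYC and the feedback phosphatase DUSP6. MYC in turn drives genes of ribosome assembly and cell growth. In luminal breast cancer the oestrogen receptor, encoded by ESR1, controls a further set of genes, among them PGR and GREB1.

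Values are log2 signals, so a difference of 1 is a doubling, and every difference is SHP2 miR1 minus SHP2 miR2 with its standard error (SE). A gene passed, or was called, when its limma p-value, adjusted after Benjamini-Hochberg over all 18377 genes, was below 0.05. The labels number the tumours without tying them to animals, so the p-values measure the spread between these tumours. The number of arrays, 3 of them with miR2, limits the precision, and no detection call was used, so the level at which a signal is background is unknown. In a dissected tumour, fewer cells of a type and less RNA per cell cannot be told apart.

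Some arrays stood apart from their group. The 10 arrays fell into 2 array sets that no label describes and that were read from 5 noncoding RNAs. Set A held miR1 tumours 1 to 4, and set B held miR1 tumours 5 to 7 with all miR2 tumours. The mean log2 signal of those RNAs was 6.90 to 8.39 with miR1 and 6.90 to 7.21 with miR2. The arrays of miR2 tumours 1 and 3 had compressed values, as their SD over all clusters was 1.89 each, against 1.98 in miR2 tumour 2 and 1.99 to 2.07 with miR1. Results are therefore also given with the set as a block, in set B alone (3 tumours of each hairpin), with every array scaled to a common SD, and without miR2 tumours 1 and 3. That last fit leaves a single miR2 tumour, which is assumed to vary like the others. Control tumours 1, 3, 4 and 6 differed from control tumours 2 and 5. IRS4, an insulin receptor adaptor, had a log2 signal of 2.97 to 3.91 in the 10 knockdown tumours, against 7.14 to 8.29 in those 4 controls, while control tumour 2 had 3.16 and control tumour 5 had 3.77.

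PTPN11, the targeted gene (transcript cluster 7958846, chromosome 12), was below all controls in all 10 knockdown tumours, and lowest with miR2. Its log2 signal ran from 6.59 through a median of 6.97 to 7.18 in the 7 miR1 tumours, was 6.52, 6.53 and 6.34 in miR2 tumours 1, 2 and 3, and ran from 8.23 through 8.39 to 8.61 in the controls. Every miR1 value lay above every miR2 value. The mean of the miR1 tumours was 6.93 ± 0.19 (SD, n = 7) and that of the miR2 tumours 6.46 ± 0.10 (SD, n = 3), which left 36.03% and 26.14% of the control signal with miR1 and miR2. The difference between the hairpins was 0.46 ± 0.12 (SE), a 1.38-fold higher signal with miR1 (limma adjusted p = 0.00969). By an exact permutation test (two-sided) p was 0.00833, the smallest that the 120 arrangements allow. In set B alone the difference was 0.54 (limma adjusted p = 0.013). It did not pass without miR2 tumour 3 (0.40, limma adjusted p = 0.0703), after quantile normalization (0.31, limma adjusted p = 0.0747) or cyclic loess (0.28, limma adjusted p = 0.115). Nor did it pass with a host marker score as covariate (0.57, limma adjusted p = 0.183) or with the replicate number as a block (0.40, limma adjusted p = 0.115). That block sets only miR1 tumours 1 to 3, all of set A, against the miR2 tumours, all of set B. It therefore cannot tell the hairpin from the array set. Without miR2 tumours 1 and 3 the difference was 0.40.

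Although PTPN11 was low with both hairpins, the tumours differed broadly. Of 18377 genes, 5375 were called (29.2%), 3177 of them higher with miR1 (17.3%) and 2198 lower (12%). Differences of more than 1 log2 unit were found for 110 genes higher and 62 genes lower with miR1. The 7 miR1 and 3 miR2 values did not overlap for 3699 genes (20.1%). The first principal component held 54.8% of the variance and placed the miR1 tumours at 1.27 to 30.1 and miR2 tumours 1, 2 and 3 at -38.3, -15.8 and -44.9. The second held 11.8%, and both components divided the miR1 tumours by array set. On the first component the miR1 tumours of set A lay at 15.5 to 30.1 and those of set B at 1.27 to 6.01. With the set as a block 2464 genes passed (13.4%), 1830 of them higher (9.96%) and 634 lower (3.45%). In set B alone 1742 passed (9.48%), 1300 of them higher (7.07%) and 442 lower (2.41%). With each array scaled to a common SD 4317 passed (23.5%), and 1647 (8.96%) passed in all tumours, with the block and in set B with the same sign. Without miR2 tumour 1 the count was 2385, without miR2 tumour 3 it was 2036, and without both it was 481.

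**Figure D1:**
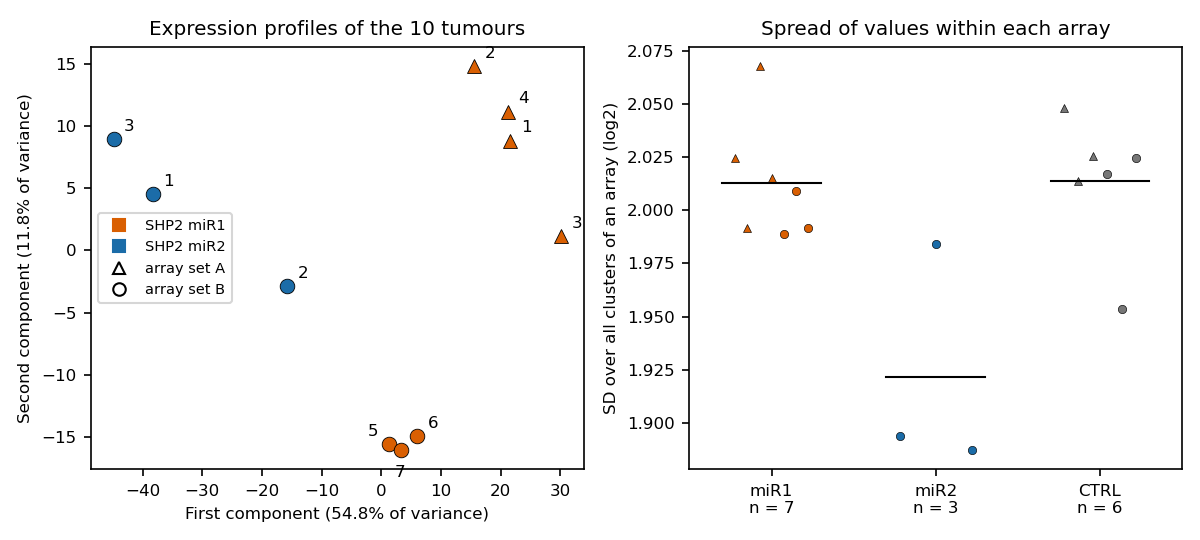
Left, the first 2 principal components of the 10 knockdown tumours, labelled by tumour number, with orange for SHP2 miR1, blue for SHP2 miR2, triangles for array set A and circles for set B. Right, the SD over all transcript clusters of each array (log2), with a line at the group mean: miR2 tumours 1 and 3 lie at 1.89, below all miR1 arrays.

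The direction of the differences moved with the level of a gene. Among the 6126 genes with the highest mean signal, 2046 were higher and 171 lower with miR1, with a median difference of 0.22. Among the 6126 genes with the lowest mean signal, 136 were higher and 1040 lower, with a median of -0.18. With each array scaled to a common SD these medians were 0.07 and -0.03, and the counts 1103 against 532 and 396 against 416. List medians below stand beside a median of -0.00429 over all genes and beside these values. List counts stand beside 17.3% higher and 12% lower among all genes tested, and beside 7.07% and 2.41% in set B alone.

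The 30 genes described next are the 15 with the largest positive and the 15 with the largest negative difference among called genes whose values did not overlap. Their adjusted p-values ran from 2.04e-12 to 1.82e-05, and all 30 were also called with the set as a block, in set B alone, with a common SD, after quantile normalization, with a host marker score as covariate, and without miR2 tumours 1 and 3. For 29 of the 30 the control median lay nearer to the miR1 median than to the miR2 median, as it did for 4753 of all 5375 called genes (88.4%) and for 73.7% of all genes tested. NELL2 was the exception, and it had 4.72 to 5.28 in control tumours 1, 3, 4 and 6, 3.80 in control tumour 2 and 3.71 in control tumour 5.

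SLC6A14, a transporter that imports neutral and basic amino acids, had the largest difference. Its log2 signal ran from 7.82 through a median of 8.21 to 8.40 with miR1, was 4.12, 3.49 and 4.11 with miR2, and ran from 7.49 through 7.67 to 7.78 in the controls. The miR1 tumours lay close together, far above all miR2 tumours, and the difference was 4.28 ± 0.15 (SE), or 19.5-fold (limma adjusted p = 2.04e-12). SLC7A5, the light chain of the leucine transporter LAT1, was 2.19 higher with miR1, with 8.83 to 9.26 in the miR1 tumours, 6.65, 7.01 and 6.93 in the miR2 tumours and 8.43 to 9.07 in the controls.

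Genes of hormone signalling followed. GREB1, a cofactor of the oestrogen receptor, had 8.90, 9.18 and 9.64 (lowest, median, highest) with miR1, 5.93, 5.59 and 5.57 with miR2, and 8.43, 8.82 and 9.50 in the controls, a difference of 3.52 ± 0.16 (SE), or 11.5-fold. PGR, the progesterone receptor, had 9.10, 9.28 and 9.51 with miR1, 6.51, 5.26 and 5.65 with miR2, and 8.04, 8.20 and 8.52 in the controls, a difference of 3.49 ± 0.18 (SE), or 11.2-fold. In both genes the lowest miR1 tumour lay over 2 log2 units above the highest miR2 tumour. IGF1R, the receptor of insulin-like growth factor, differed by 2.66 ± 0.17 (SE), with 7.20, 7.67 and 7.84 in miR1 tumours and 5.32, 4.56 and 4.88 in miR2 tumours. PREX1, an exchange factor that activates the GTPase RAC, differed by 3.05 ± 0.18 (SE), with 7.90, 8.64 and 8.88 in miR1 tumours and 5.27, 5.50 and 5.44 in miR2 tumours. Control values of PREX1 spread from 7.03 to 8.73, below and within the miR1 range.

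MYC had a log2 signal of 6.96, 7.26 and 7.52 (lowest, median, highest) with miR1, 4.73, 5.28 and 5.27 with miR2, and 6.99, 7.61 and 7.75 in the controls. The miR1 and control ranges overlapped, and all miR2 tumours lay below both. The difference was 2.14 ± 0.14 (SE), or 4.40-fold, and 2.05 in set B alone. MYBL1, a transcription factor of the MYB family, was 2.13 higher with miR1. Among the 15, TCN1, which carries vitamin B12, differed by 3.36, MUCL1, a small mucin-like protein, by 2.64, and MGP, an inhibitor of calcification, by 2.28. The other 4 of the 15 were CYP2B7P (3.18), MPPED2 (2.59), GRIK3 (2.25), a glutamate receptor subunit, and ST8SIA6 (2.18), a sialyltransferase. CYP2B7P is a near-identical copy of CYP2B6, which itself differed by 1.76, so the signals of the pair are uncertain and may be shared. CYP2B7P was also the most variable of the 30 among miR1 tumours, with an SD of 0.509.

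MME, a cell surface peptidase also known as neprilysin or CD10, had the largest difference in the other direction. Its log2 signal was 4.26, 4.51 and 4.67 (lowest, median, highest) with miR1, 8.08, 9.07 and 8.30 with miR2, and 4.99, 5.58 and 5.85 in the controls. The miR1 values lay below all controls and the miR2 values above them, and the difference was -4.03 ± 0.16 (SE), a 16.3-fold lower signal with miR1 (limma adjusted p = 2.38e-11). CBLN2, a secreted organiser of synapses, differed by -3.16 ± 0.17 (SE), with 5.09, 5.31 and 5.56 in miR1 tumours, 8.03, 9.02 and 8.46 in miR2 tumours and 4.85, 5.40 and 5.90 in controls. Here the miR1 and control values overlapped, and the miR2 tumours stood apart.

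Further genes of cell adhesion and of neurons were lower with miR1. CDH8, a cadherin of the nervous system, differed by -2.37, PPFIA2, a scaffold of presynaptic sites, by -2.40, SYT1, the calcium sensor of synaptic vesicles, by -1.91, VSTM2A by -2.27 and NELL2, a secreted neural protein, by -1.63. In CDH8 the miR1 tumours had 3.85, 4.20 and 4.32 (lowest, median, highest) and the miR2 tumours 6.36, 6.76 and 6.49. LTF, the milk protein lactoferrin, differed by -2.15, with 4.56, 4.70 and 4.89 in miR1 tumours, 7.20, 6.23 and 7.23 in miR2 tumours and 4.34, 4.82 and 5.33 in controls. Its 3 miR2 values all lay more than 1 log2 unit above the highest miR1 value. STS, the steroid sulfatase that releases oestrogens and other steroids from their sulfates, differed by -1.99, and PDE3A, a phosphodiesterase of cyclic nucleotides, by -1.73. EYS, known from photoreceptors, differed by -2.29 and was the least variable of the 30 among miR1 tumours (SD 0.104), at the low signals of 2.66 to 2.96. OTOGL, a mucin-like secreted protein, differed by -2.02 and LINC00417, a noncoding RNA, by -2.46. The last pair, ANKRD20A11P (-2.32) and ANKRD20A8P (-2.09), belongs to a family of near-identical copies, so which copy was measured is uncertain.

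**Figure D2:**
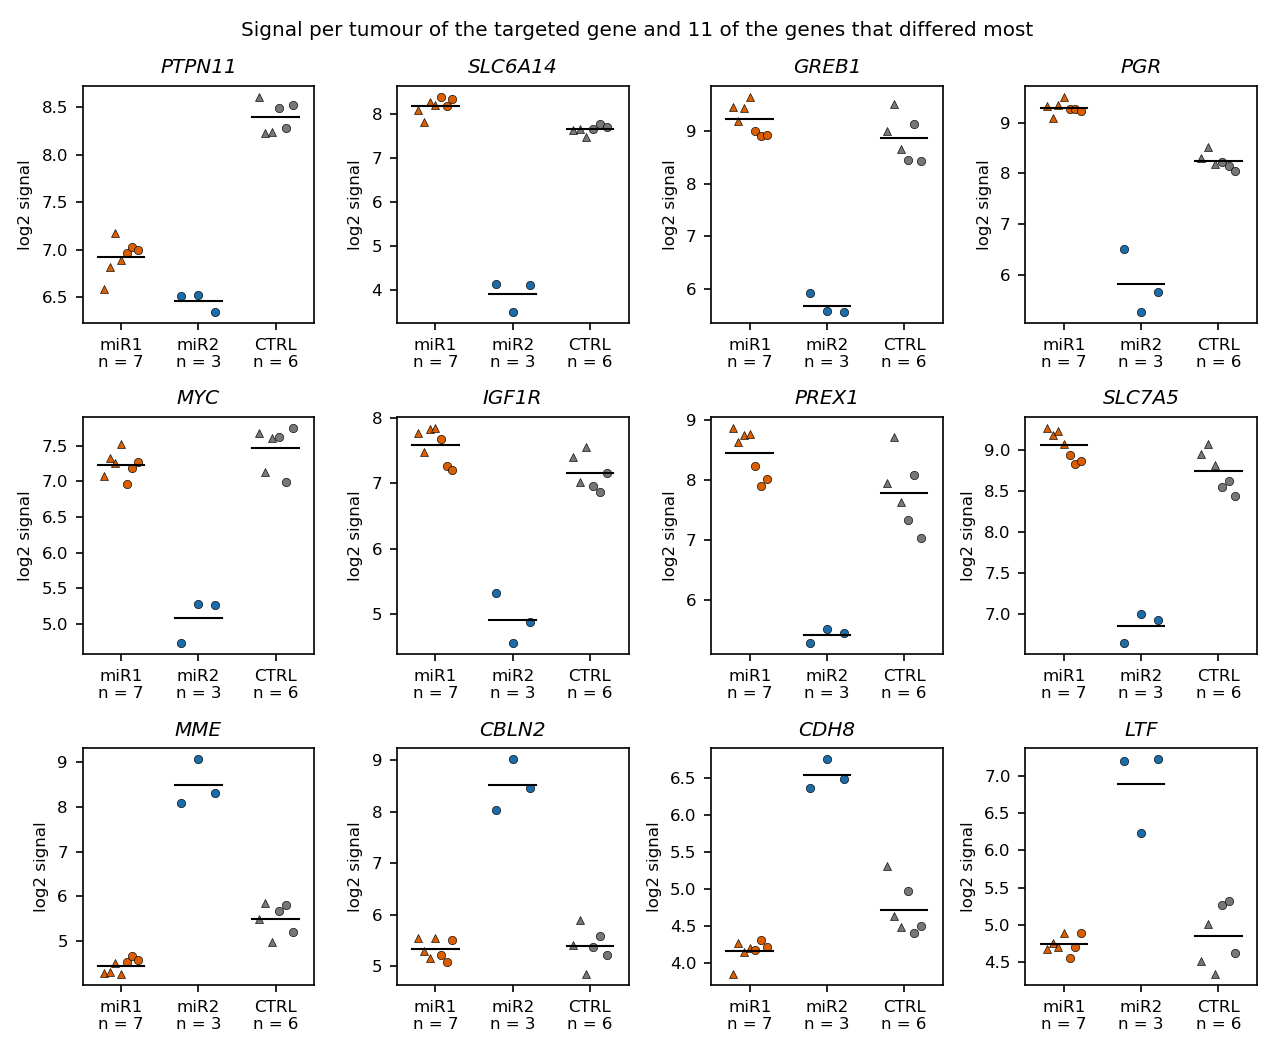
Log2 signal per tumour of PTPN11 and of 11 of the 30 genes with the largest differences, for SHP2 miR1 (n = 7), SHP2 miR2 (n = 3) and CTRL miR (n = 6). Triangles are array set A, circles set B and lines group means. In each panel the 7 miR1 values and the 3 miR2 values do not overlap, which for the 11 genes was a condition of their choice.

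Genes of mitosis were higher with miR1 without exception. All 24 measured members of the list passed (24 with the set as a block, 22 in set B alone), with differences of 0.38 to 1.12 and a median of 0.79. KIF20A and KIF2C, motor proteins of the spindle and of the dividing cell, differed by 1.12 and 1.10, and CENPF, a kinetochore protein, by 1.06. KIF20A had 7.14, 7.28 and 7.53 (lowest, median, highest) with miR1, 6.13, 6.62 and 5.74 with miR2, and 6.75, 7.39 and 7.61 in the controls. The mean signal of the whole list ran from 7.56 to 7.85 with miR1, was 6.62 to 7.24 with miR2 and ran from 7.47 to 8.06 in the controls. The miR2 tumour nearest to the miR1 tumours was tumour 2, and without miR2 tumours 1 and 3 the count fell to 5. Genes of DNA replication were higher for 19 of 25 members and lower for none (median 0.61; 18 in set B), among them MCM6, a subunit of the replicative helicase (1.0), and CCNE1, the cyclin that starts S phase (0.98). Without miR2 tumours 1 and 3, 2 of the 25 passed.

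Ribosome biogenesis genes and other growth targets of MYC moved as evenly. Of 29 measured members 28 were higher with miR1 and none lower, with a median of 0.68 (25 with the set as a block, 25 in set B and 22 with a common SD). BOP1, with a difference of 0.47, did not pass (limma adjusted p = 0.0646). WDR43 and RRS1, factors of ribosome assembly, differed by 0.98 and 0.96, and NOLC1, a nucleolar chaperone, by 0.95. WDR43 had 8.31, 8.5 and 8.78 (lowest, median, highest) with miR1, 7.45, 7.78 and 7.33 with miR2, and 8.23, 8.70 and 8.87 in the controls, so that the miR2 tumours alone were low. The mean of the list was 8.09 to 8.33 with miR1, 7.38 to 7.68 with miR2 and 7.97 to 8.45 in the controls. Without miR2 tumours 1 and 3 the count fell to 3. Among MYC and its partners, 12 genes in all, MLX was higher (0.31) beside MYC, and MYCN was lower (-0.61).

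Promoters of the ribosome and mitosis lists are shown with 2 short motifs known from the textbook regulation of such genes. The lists were drawn up by function, with earlier results of these data known, and the ribosome list includes growth targets of MYC. All promoters found are counted. The shares below are therefore not independent of how the lists were chosen. A role of the motifs in the differences measured here was not tested. The E-box CACGTG, which MYC with its partner MAX can bind, occurs on either strand in 45.8% of the 24 ribosome list promoters found (11), against 8.88% of all 14210 promoters of the same 300 bases. The core of the cell cycle homology region, TTTGAA, occurs on either strand in 57.9% of the 19 mitosis list promoters found (11), against 11.9% of all. These are matches of letters and not measured binding. Promoters of WDR43 and UTP20 (E-box) and of CENPF and CDC20 (cell cycle homology region) follow as in RefSeq on GRCh38.p14, 5′ to 3′ from 250 bases before the start of the gene to 50 after it, with every match to either motif in capitals. They lie at chr2:28894417-28894716, chr12:101279855-101280154, chr1:214602945-214603244 and chr1:43358731-43359030, all on the plus strand.
WDR43: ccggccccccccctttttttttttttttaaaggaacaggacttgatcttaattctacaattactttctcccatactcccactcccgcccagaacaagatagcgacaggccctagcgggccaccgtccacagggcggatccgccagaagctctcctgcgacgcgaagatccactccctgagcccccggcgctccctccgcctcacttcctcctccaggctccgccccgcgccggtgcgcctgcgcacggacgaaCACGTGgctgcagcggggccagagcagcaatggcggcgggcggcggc
UTP20: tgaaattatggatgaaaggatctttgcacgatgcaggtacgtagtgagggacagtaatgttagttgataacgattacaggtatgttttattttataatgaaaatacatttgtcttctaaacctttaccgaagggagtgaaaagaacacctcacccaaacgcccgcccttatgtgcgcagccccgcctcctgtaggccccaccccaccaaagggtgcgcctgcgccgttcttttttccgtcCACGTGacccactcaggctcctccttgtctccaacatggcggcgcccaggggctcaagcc
CENPF: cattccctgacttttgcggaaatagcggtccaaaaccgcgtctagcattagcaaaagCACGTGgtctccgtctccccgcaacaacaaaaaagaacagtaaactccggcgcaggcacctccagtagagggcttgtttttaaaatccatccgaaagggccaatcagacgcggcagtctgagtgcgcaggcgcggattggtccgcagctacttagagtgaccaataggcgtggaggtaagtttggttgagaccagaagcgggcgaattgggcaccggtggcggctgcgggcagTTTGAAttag
CDC20: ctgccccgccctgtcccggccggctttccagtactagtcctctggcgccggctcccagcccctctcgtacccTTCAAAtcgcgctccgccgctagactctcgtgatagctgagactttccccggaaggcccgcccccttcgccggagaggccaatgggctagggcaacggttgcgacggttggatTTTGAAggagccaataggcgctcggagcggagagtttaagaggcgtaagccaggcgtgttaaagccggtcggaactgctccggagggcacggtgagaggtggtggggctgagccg

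Further genes of the oestrogen response were higher with miR1, although ESR1 itself was lower. Of 18 measured members of the list 10 were higher and none lower, with a median of 0.60 (10 with the set as a block, 9 in set B, 11 with a common SD and 8 without miR2 tumours 1 and 3). Besides GREB1 and PGR, AGR3 differed by 1.36, TFF1, a secreted trefoil peptide, by 1.21, CXCL12, a chemokine, by 1.11 and STC2, a secreted glycoprotein, by 0.93. TFF1 had 9.11, 9.31 and 9.55 (lowest, median, highest) with miR1, 7.96, 8.09 and 8.33 with miR2, and 8.91, 9.04 and 9.55 in the controls. ESR1 had 6.07, 6.45 and 6.67 with miR1, 6.65, 7.30 and 6.85 with miR2, and 5.33, 5.80 and 6.20 in the controls, a difference of -0.53 ± 0.16 (SE, limma adjusted p = 0.0191). The highest miR1 value, 6.67, overlapped the lowest miR2 value, 6.65.

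Luminal identity genes did not move as a block. Of 20 measured members 8 were higher with miR1 (40%) and 3 lower (15%), against 17.3% and 12% of all genes tested. The median was 0.19, and the counts were 2 and 3 in set B, and 2 and 5 with a common SD. The lower ones were MUC1, an epithelial surface mucin (-1.20), GATA3, a luminal transcription factor (-0.78), and ESR1. MUC1 had 7.58, 7.81 and 8.25 (lowest, median, highest) with miR1, 8.68, 9.32 and 9.21 with miR2, and 6.88, 7.17 and 8.05 in the controls. The miR2 tumours were highest, and the miR1 tumours overlapped the controls. KRT18, KRT19 and KRT7, keratins of simple epithelium, differed by 0.49, 0.56 and 0.59. Mammary secretory genes went both ways, with 5 of 19 higher and 5 lower (26.3% each, against 17.3% and 12% of all genes tested). The counts were 5 and 2 with the set as a block or after quantile normalization. In set B 4 were higher and 2 lower, and with a common SD 5 and 3. TCN1, MGP, SCGB2A2 (mammaglobin, 1.96), PLIN2 (0.51) and ELF5 (0.34) were higher with miR1, and LTF, XDH (-0.61), FOLR1 (-0.49), BTN1A1 (-0.43) and LPO (-0.35) were lower.

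Genes that supply amino acids were also higher with miR1. In the list of unfolded protein and amino acid responses 13 of 23 members were higher and none lower, with a median of 0.40 (12 with the set as a block, 9 in set B and 5 without miR2 tumours 1 and 3). Its leading members, after SLC6A14 and SLC7A5, were SLC7A11, the cystine importer (1.36), PSAT1 of serine synthesis (1.29), SHMT2, which passes serine carbon to folate in mitochondria (1.25), and PHGDH, the first enzyme of serine synthesis (0.84). PSAT1 had 8.27, 8.49 and 8.65 (lowest, median, highest) with miR1, 7.46, 7.20 and 6.94 with miR2, and 8.27, 8.84 and 8.99 in the controls. The miR1 and control values overlapped and the miR2 values lay below both. The list mean was 7.80 to 7.94 with miR1, 7.10 to 7.22 with miR2 and 7.78 to 8.0 in the controls. In oxidative phosphorylation 12 of 23 members were higher with miR1 (52.2%, against 17.3% of all genes tested), but 2 in set B and 3 with a common SD.

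The immediate output of the ERK pathway was higher with miR1 for 7 of 20 genes (35%) and lower for 2 (10%), with a median of 0.16. Among all genes tested 17.3% were higher and 12% lower. In set B 3 of the 20 were higher and 1 lower, and with the host marker score 2 were higher and none lower. DUSP6, the ERK phosphatase, had 6.30, 6.82 and 7.33 (lowest, median, highest) with miR1, 5.78, 5.42 and 5.55 with miR2, and 7.0, 7.16 and 7.33 in the controls. Its difference was 1.22 ± 0.17 (SE), or 2.33-fold, and 1.06 in set B (limma adjusted p = 0.00136). SPRY4, a feedback inhibitor, differed by 0.64 and ETV4, a transcription factor, by 0.39, both called in all tumours but not in set B (limma adjusted p = 0.0615 and 0.143). CCND1, cyclin D1, differed by 0.53 (0.45 in set B, limma adjusted p = 0.0317). Of the pair that was lower with miR1, SPRY1 differed by -0.60 and EGR1, an immediate-early factor, by -0.61. ETV5 differed by 0.17 and did not pass (95% interval -0.13 to 0.46).

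Of 14 ERBB receptors and ligands 11 did not pass, and of 14 partners and adaptors of SHP2 12 did not pass. Shares higher and lower were 14.3% and 7.14% in the first list, 7.14% each in the second and 13.3% each in the 17q12 amplicon. Among all genes tested they were 17.3% and 12%. ERBB2 had 10.91, 11.22 and 11.32 (lowest, median, highest) with miR1, 11.04, 11.31 and 11.30 with miR2, and 10.59, 10.99 and 11.26 in the controls, with a difference of -0.07 (95% interval -0.32 to 0.17). ERBB3 differed by 0.10 (95% interval -0.17 to 0.38), and by -0.11 in set B or with a common SD. Among 14 ERBB receptors and ligands, the ligands EPGN (0.59) and BTC (0.55) were higher with miR1 and NRG2 (-0.46) was lower. Among 14 partners and adaptors, IRS1, the insulin receptor substrate, was higher by 1.29 and SIRPA, an inhibitory receptor that binds SHP2, lower by 0.59. IRS1 had 6.20, 6.55 and 6.69 with miR1, 5.10, 5.14 and 5.31 with miR2, and 5.38, 6.05 and 6.51 in the controls. The adaptors GAB1 (-0.12, 95% interval -0.34 to 0.09) and GAB2 (-0.03, 95% interval -0.29 to 0.24, and 0.026 with a common SD) and PTPN6, the related phosphatase SHP1 (-0.19, 95% interval -0.47 to 0.09), did not pass. Of the 15 genes of the 17q12 amplicon 2 were higher, PNMT (0.76) and PSMD3 (0.32, but -0.067 with a common SD), and 2 lower, TCAP and GSDMB (both -0.49). With a common SD 1 of the 15 was higher and 7 lower. Of 19 genes that process microRNA and hairpins 4 were higher with miR1: XPO5 (0.61), which exports hairpins from the nucleus, RAN (0.36), DROSHA (0.34) and DGCR8 (0.29). These 4 made up 21.1% of the list, close to the 17.3% higher among all genes tested. In set B 2 of the 19 were higher. With a common SD 1 was higher and 1 lower, and after quantile normalization 1 was higher and 2 lower.

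**Figure D3:**
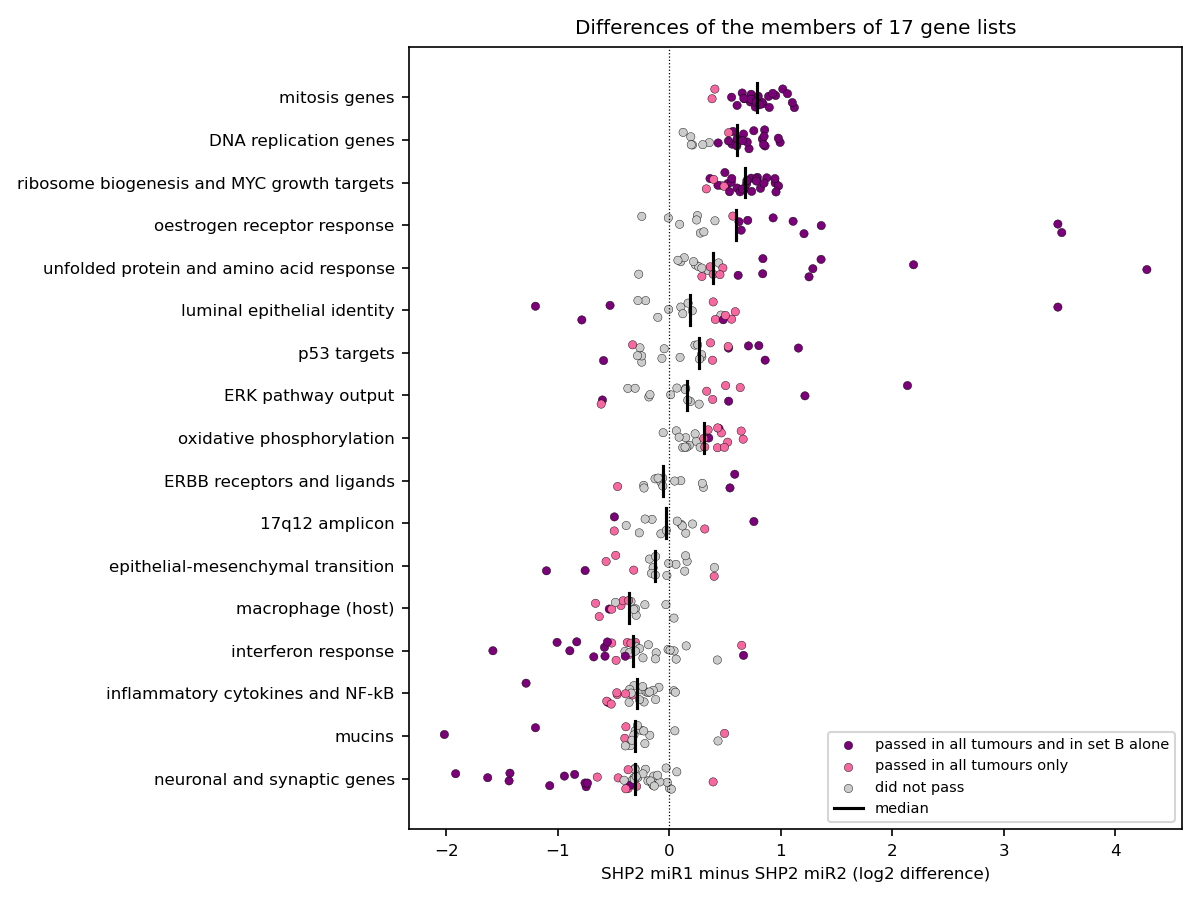
Log2 difference, SHP2 miR1 minus SHP2 miR2, of each measured member of 17 gene lists, with a bar at the list median. Dark points passed in all tumours and in set B alone, light points passed in all tumours only and grey points did not pass; all mitosis genes lie right of 0, and 38 of 42 neuronal genes lie left of it.

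A part of the neuronal and synaptic genes was lower with miR1. Of 42 measured members 17 were lower, 1, STX1A (0.39), was higher and 24 did not pass, with a median of -0.31. The share lower was 40.5%, against 12% of all genes tested. The list was chosen with earlier results of these data known, so this share is not independent of them. GRIK3, the glutamate receptor subunit described above as higher with miR1, is not in the list. With a common SD 12 were lower and 1 higher, with a median of -0.21. In set B 12 were lower, and without miR2 tumours 1 and 3 there were 11. Besides SYT1, GRIK2, a kainate receptor subunit, differed by -1.63, PVALB, a calcium buffer, by -1.44, ROBO2, an axon guidance receptor, by -1.43, CNTNAP2 by -0.85 and LRRTM4, a synaptic adhesion protein, by -0.75. GRIK2 had 5.44, 5.61 and 6.04 (lowest, median, highest) with miR1, 7.20, 7.65 and 7.06 with miR2, and 5.03, 5.33 and 5.69 in the controls. The mean of the list was 4.51 to 4.64 with miR1, 4.95 to 5.06 with miR2 and 4.43 to 4.73 in the controls, so the miR2 tumours lay above the other 13 tumours. LRRTM4 was an exception among the named ones, with 4.96 to 5.49 in control tumours 1, 3, 4 and 6, above the miR2 tumours, with 3.71 in control tumour 2 and 4.09 in control tumour 5.

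Interferon response genes were lower with miR1 for 15 of 32 members and higher for 2, MX2 (0.67) and USP18 (0.65), with a median of -0.32. The share lower was 46.9%, against 12% of all genes tested, in a list that was also chosen with earlier results known. With a common SD 8 were lower and 2 higher, with a median of -0.20. With the set as a block the counts were 10 and 1, in set B 9 and 1, and without miR2 tumours 1 and 3 they were 8 and 0. IFI6, an interferon-induced mitochondrial protein, had 6.51, 6.84 and 7.30 (lowest, median, highest) with miR1, 8.36, 8.53 and 8.32 with miR2, and 6.52, 6.61 and 6.83 in the controls, a difference of -1.58 ± 0.15 (SE). OAS1, a sensor of double-stranded RNA, differed by -1.0 and IRF9, a subunit of the factor that drives these genes, by -0.89. The list mean was 4.76 to 4.87 with miR1, 4.97 to 5.28 with miR2 and 4.76 to 4.85 in the controls. Of 12 antigen presentation genes 4 were lower with miR1, B2M and PSMB9 (both -0.66), PSMB8 (-0.37) and NLRC5 (-0.31), and CALR was higher (0.29, but -0.024 with a common SD). Inflammatory genes were lower for 8 of 24 members and higher for none, led by IL6 (-1.28). In set B 2 of the 24 passed, IL6 and TNFAIP3.

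**Figure D4:**
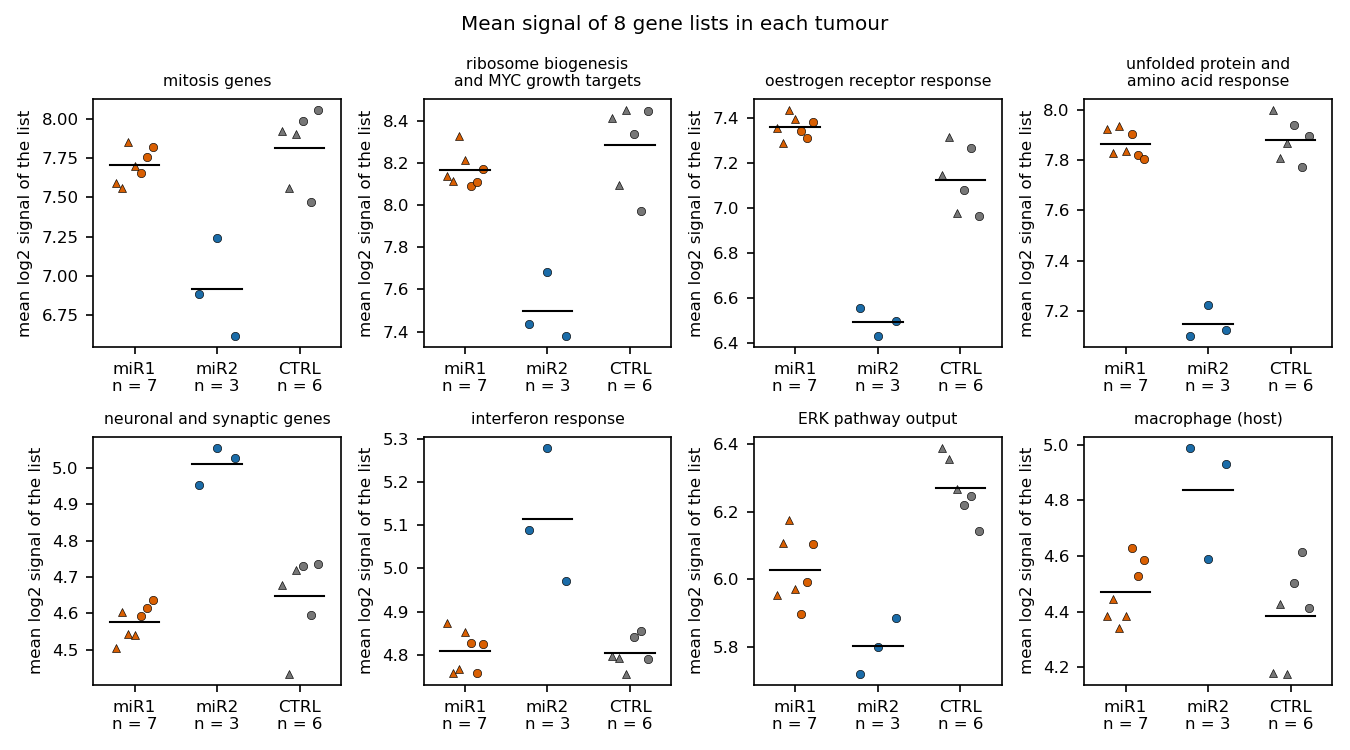
Mean log2 signal of the members of 8 gene lists in each tumour, for SHP2 miR1 (n = 7), SHP2 miR2 (n = 3) and CTRL miR (n = 6), with triangles for array set A, circles for set B and lines at group means. For the mitosis, ribosome, oestrogen, amino acid, neuronal and interferon lists the miR2 tumours lie apart from both other groups, and for the macrophage list miR2 tumour 2 falls within the miR1 range.

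The next lists stand beside shares of 17.3% higher and 12% lower among all genes tested. Of 22 p53 targets 8 were higher with miR1 (36.4%) and 2 lower (9.09%), and 5 and 1 in set B, with the death receptor TNFRSF10B first (1.16) and PMAIP1, a BH3-only protein, next among the higher ones (0.86). SESN1 (-0.59) and TP53INP1 (-0.33) were lower. Of 20 FOXO targets 5 were higher, BCL6 and PDK4 (both 0.91), CDKN1B (0.66), BCL2L11 (0.48) and SOD2 (0.47). SESN3 (-1.44), SESN1 and CCNG2 (-0.34) were lower. These shares, 25% and 15%, lay close to those of all genes, and in set B 2 were higher and 2 lower. SESN3 had 6.68 to 6.78 in control tumours 1, 3, 4 and 6 with 5.51 in control tumour 2 and 5.03 in control tumour 5, so its place relative to the controls depends on which are used. In the epithelial-mesenchymal list of 18 genes ZEB2 (-1.10), TWIST1 (-0.75), CDH2 (-0.57), MMP2 (-0.48) and SPARC (-0.32) were lower with miR1 and GRHL2 (0.40) was higher, and in set B ZEB2 and TWIST1 passed. Of 17 stem and progenitor genes ALDH1A3 (0.69), CD44 (0.58), KLF4 (0.51), NOTCH1 (0.41) and EZH2 (0.35) were higher and none was lower. This split did not hold under scaling, as 4 were higher and 3 lower with a common SD or after quantile normalization, and in set B 2 were higher. Of 13 membrane peptidases MME, ACE (-0.54), DPP4 (-0.51) and CPM (-0.32) were lower, and TMPRSS3 was higher (0.50).

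Some markers of host cells were lower with miR1. Their counts stand beside 12% lower among all genes tested, and beside 1040 lower of the 6126 genes with the lowest mean signal. Of 15 macrophage markers 7 were lower with miR1 and none higher (3 with the set as a block, 1 in set B), with list means of 4.34 to 4.63 with miR1, 4.59 to 4.99 with miR2 and 4.18 to 4.62 in the controls. PTPRC, the leukocyte marker CD45, differed by -0.54 at the low signals of 3.14 to 3.41 with miR1 and 4.06, 3.57 and 3.96 with miR2. Of 15 fibroblast markers DPT, COL3A1, PDGFRA, COL1A2 and SPARC were lower and COL5A2 higher, of 12 endothelial markers 3 were lower (ROBO4, CLDN5 and ENG), of 8 adipocyte markers 3 (PLIN1, LPL and CFD), of 7 lymphocyte markers 4 (GZMB, CD3D, CD79A and CD3E) and of 12 skeletal muscle markers none. With the set as a block, and likewise in set B alone, 1 fibroblast marker was lower and 1 higher, 1 adipocyte marker was lower, and none of the endothelial or lymphocyte markers passed. The endothelial median difference was -0.19, close to the -0.18 of the genes with the lowest mean signal. Fibroblast, adipocyte and skeletal muscle medians were -0.25, -0.23 and -0.25, and macrophage and lymphocyte medians -0.36 and -0.37. With a common SD the endothelial, fibroblast and adipocyte medians were -0.05, -0.10 and -0.05. Those of skeletal muscle, macrophage and lymphocyte markers were then -0.26, -0.34 and -0.29. The arrays carry human probes, and the part of host RNA in these signals was not tested. With the mean of the fibroblast, endothelial and macrophage markers as a covariate 395 genes passed, 182 higher and 213 lower. These lists were themselves higher with miR2. The medians of their means were 5.10, 4.50 and 4.44 with miR1, and 5.31, 4.69 and 4.93 with miR2. Score and hairpin can therefore not be fully told apart in this fit. The members that passed were then 7 of 18 in the oestrogen list, 5 of 23 in the amino acid list, 4 of 24 in mitosis and 4 of 29 in the ribosome list, all higher, 0 of 25 in DNA replication and 0 of 23 in oxidative phosphorylation, and 8 of 42 in the neuronal and 5 of 32 in the interferon list, all lower. EPCAM, an epithelial surface marker, had 10.40 to 10.90 with miR1, 10.76 to 11.08 with miR2 and 10.36 to 10.74 in the controls, a difference of -0.28 (limma adjusted p = 0.0949), while the keratins KRT18, KRT19 and KRT7 were higher with miR1.

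The differences were spread over the genome. On 23 chromosomes 10.2% to 20.8% of genes were higher and 9.31% to 15% lower with miR1, with median differences of -0.07 to 0.06. The 30 genes with the largest differences lay on 17 chromosomes, and 7 of them on chromosome 12. No 2 of the 30 were neighbours in the order of measured genes. A stretch of chromosome 12 from NAV3 to SLC6A15 stood out when medians over 8 neighbouring genes were taken in 18180 windows, and it was chosen after its values were seen. The lowest median of all windows, -0.90, lay there, against -0.35 at the lowest 1% of windows. Other windows stood out in the opposite direction. The highest median, 0.70, was found on chromosome 19 from NUMBL to CYP2B6, and 0.61 on chromosome 14 from PAX9 to SEC23A. At the highest 1% of windows the median was 0.38. Of the 14 genes of the chromosome 12 stretch 9 were lower with miR1 and 8 of these also in set B. PPFIA2, OTOGL and SYT1 were joined by LIN7A, a scaffold protein of cell polarity (-1.24), ACSS3, an acyl-CoA synthetase of mitochondria (-1.22), NAV3 (-0.66), the amino acid transporter SLC6A15 (-0.64), METTL25 (-0.57) and MYF5 (-0.35). CCDC59 was higher (0.84), and 4 genes between them did not pass. LIN7A had 6.69, 6.89 and 6.95 (lowest, median, highest) with miR1, 8.01, 8.26 and 8.05 with miR2, and 6.54, 6.82 and 7.02 in the controls. In PPFIA2, OTOGL, SYT1, LIN7A, ACSS3 and NAV3 every miR2 tumour was above every miR1 and control tumour. SLC6A15 was 6.57 to 7.37 in control tumours 1, 3, 4 and 6, far above all other tumours. Copy number was not measured here.

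**Figure D5:**
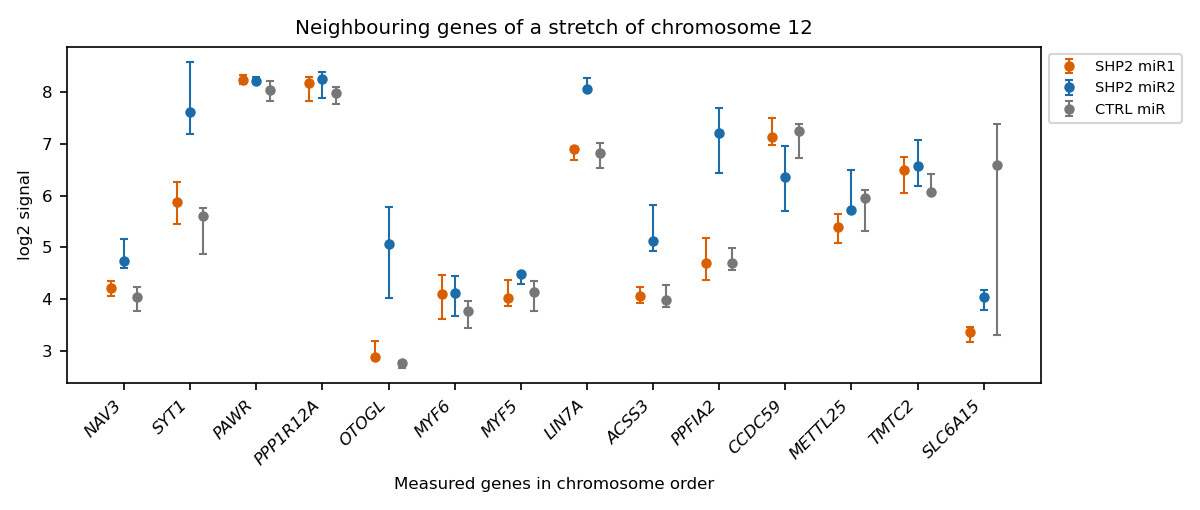
Log2 signal of 14 neighbouring measured genes of chromosome 12, in chromosome order and not to scale, for SHP2 miR1 (orange, n = 7), SHP2 miR2 (blue, n = 3) and CTRL miR (grey, n = 6). Points are group medians and bars run from the lowest to the highest tumour; the miR2 range lies above the miR1 range for NAV3, SYT1, OTOGL, LIN7A, ACSS3, PPFIA2, METTL25 and SLC6A15.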

How the data were processed

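Each HuGene-1_0-st-v1 array contributed a log2 signal per transcript cluster to the table deposited by the authors, with the scale inferred from the values. The submitters' processing notes name R 2.10 and oligo 1.8. How background was removed and arrays were normalized is not given in the sources used here. The deposited log2 values were used unchanged.

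Of 28869 clusters 19310 have 1 symbol, and 18377 genes remained. No filter on low values was applied. limma 3.58.1 in R 4.3.3 (lmFit, eBayes) was fitted to the 10 knockdown arrays (8 residual degrees of freedom), with Benjamini-Hochberg adjustment over all genes and intervals at 95%. The fit was first tested on simulated data. Depth is not defined for arrays. Deposited replicate numbers were checked for pairing and did not pair the tumours.

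The groups, the 43 gene lists, the tests and the 23 alternatives were chosen with earlier results of these data known, and 2 alternatives were added later: the array set as a block with a common SD, and leaving out miR2 tumours 1 and 3. Named genes were PTPN11, a panel of 12, the 15 largest differences each way among called genes without overlap, and up to 6 members with the smallest adjusted p of a list, or all members behind a count of 5 or fewer. EPCAM, CYP2B6, IRS4 and the genes of the chromosome 12 stretch were chosen after their values were seen. Promoters came from RefSeq (GRCh38.p14), found for 24 of 29 ribosome and 19 of 24 mitosis list members. Hairpin sequences were not used here. Plots were drawn with matplotlib 3.10.9.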

Additional observations from a re-analysis of the deposited data

Results flagged for a closer look

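For the 30 genes with the largest differences and the panel genes, values within the miR1 group and within the control group were examined for a tumour far from the others, in 84 groups of values, of which chance flags about 1 in 20. One was found: CDH8 in miR1 tumour 1, with a log2 signal of 3.85 against 4.16 in the nearest miR1 tumour, a gap of 0.653 of the group's range.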

How the results depend on the processing

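Against 5375 called genes (3177 higher with miR1, 2198 lower), cyclic loess gave 3297 (1766 higher), the array set as a block 2464 (1830 and 634), set B alone 1742 (1300 and 442), the block with a common SD 2128 (1410 and 718), the host marker score 395 (182 and 213), and leaving out miR2 tumours 1 and 3, which keeps 1 miR2 tumour, 481 (232 and 249). Quantile normalization gave 2014 higher, array weights 3374 lower, and leaving out the genes of lowest mean signal 1297 lower. Leaving out 1 tumour gave 2036 to 7590 genes, 1398 to 4067 higher and 638 to 3523 lower. Among called genes 59.1% were higher, and 53.5% to 59.2% after quantile, cyclic loess, median or SD scaling. The replicate number as a block gave 3780 genes (2076 higher), and PTPN11 then differed by 0.40 (limma adjusted p = 0.115). That fit compares miR1 tumours 1 to 3, all of set A, with the miR2 tumours, all of set B, and cannot tell the hairpin from the array set. The PTPN11 difference also missed the threshold with cyclic loess (0.28, limma adjusted p = 0.115), quantile normalization (0.31), the host score (0.57, limma adjusted p = 0.183) and without miR2 tumours 1 and 3 (0.40), and ranged from 0.40 to 0.52 when 1 tumour was left out. The causes were not tested.

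Signs changed for 12 of the 200 named genes, each time to a value that did not pass. ERBB3, 0.10 as reported, was -0.10 with quantile normalization, -0.12 with cyclic loess, -0.11 with a common SD, -0.11 with the block and in set B, -0.28 with the block and a common SD, -0.39 with the host score and -0.067 without miR2 tumours 1 and 3. GAB2, -0.03 as reported, was 0.10 with quantile normalization, 0.13 with cyclic loess, 0.026 with a common SD, 0.077 with the replicate block, 0.10 with the host score and 0.21 without miR2 tumours 1 and 3, and ran from -0.15 to 0.086 when 1 tumour was left out. ERBB2 was 0.034 with the replicate block. With a common SD CALR was -0.024 (-0.057 with the block as well) and PSMD3 -0.067 (-0.093 with the block as well), and FASN was -0.052 with both. With the host score CD3D was 0.020, ENG 0.0062, LPL 0.088, ELF5 -0.0085, EPHB4 -0.030, FASN -0.093 and PTPN3 -0.0094, and without miR2 tumours 1 and 3 ENG was 0.0074 and ELF5 -0.010.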

Other observations

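Further gene groups differed in parts, beside the shares of 17.3% higher and 12% lower among all genes tested. Of 13 androgen response and apocrine genes 4 were higher with miR1 and 2 lower, and 2 and 2 in set B. AZGP1, a secreted zinc-binding glycoprotein, had 6.91, 7.35 and 7.95 (lowest, median, highest) with miR1, 6.43, 6.10 and 6.18 with miR2, and 7.22, 7.45 and 7.95 in the controls, a difference of 1.18 ± 0.19 (SE, limma adjusted p = 0.00028). The miR1 and control values overlapped, and all miR2 values lay below both. FASN (0.62), the fatty acid synthase, KLK11 (0.62), a secreted protease, and ALOX15B (0.58), a lipoxygenase, were higher too, while PIP (-0.79), a secreted protein of apocrine glands, and APOD (-0.47), an apolipoprotein, were lower. Of 18 genes of cholesterol and fatty acid synthesis 5 were higher and none lower, FASN, MVD (0.52), FDPS (0.51), ACLY (0.47) and DHCR7 (0.40), but 1 in set B. Of 22 genes of hypoxia and glycolysis the enzymes ENO1 (0.76), LDHA (0.70) and PFKFB3 (0.45), the growth factor VEGFA (0.60) and the glucose transporter SLC2A1 (0.38) were higher and ANKRD37 (-0.44) was lower, and 2 of them passed in set B, both higher.

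Of 19 integrins and laminins, the matrix receptors and their ligands, 4 were higher with miR1, ITGA6 (1.16), ITGA2 (0.61), LAMB1 (0.46) and ITGB5 (0.45), and 3 lower, ITGB8 (-0.51), LAMA2 (-0.42) and LAMA1 (-0.32). In set B 1 of the 19 was higher and 1 lower. ITGA6 had 6.76, 6.98 and 7.13 (lowest, median, highest) with miR1, 5.54, 6.34 and 5.50 with miR2, and 6.79, 6.93 and 6.99 in the controls. ITGA6 also belongs to the 13 basal and myoepithelial genes, of which CDH3 (0.37) and KRT15 (0.35) were higher as well and none lower. Of these 13 only ITGA6 passed in set B. Immediate-early genes, which respond within minutes to growth factors, went both ways: of 17, SGK1 (0.85), RGS2 (0.83), KLF4 and KLF6 (0.39) were higher, and FOSB (-0.69) and FOS (-0.55) were lower. In set B 2 of them were higher and none lower. Of 17 Eph receptors and ephrins EPHA1 and EPHB4 (both 0.48) were higher and EPHA7 (-0.43), EPHA3 (-0.42) and EPHA5 (-0.37) lower. These shares, 11.8% and 17.6%, lay close to the 17.3% and 12% of all genes tested, and in set B none was higher and 1 lower. Of 25 other protein tyrosine phosphatases PTPN21 (0.50) and PTPN3 (0.39) were higher and PTPN7 (-0.54) and PTPRO (-0.39) lower, and none of the 25 passed in set B. Of 17 mucins MUC5B (0.50) was higher, and MUC2 (-0.40) and MUC7 (-0.39) were lower beside MUC1 and OTOGL. In set B only MUC1 and OTOGL passed. Clusters listed with no symbol or with several were counted in a separate fit of all 28869 clusters, with the adjustment over all of them. Of 9559 such clusters 491 were higher with miR1 and 1020 lower. In that fit 15.8% of them passed, against 22.1% of all clusters.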
